A study of Homo sapiens with 8 samples.

Results

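ChIP-seq (chromatin immunoprecipitation followed by sequencing) peaks were examined around 10 human genes that ERK signalling is known to induce. They are the phosphatase genes DUSP1, DUSP4, DUSP5 and DUSP6, the Sprouty genes SPRY2 and SPRY4, the Sprouty-related genes SPRED1 and SPRED2, and the response genes PHLDA1 and IER3. Peaks of 7 deposited lists were taken when they reached within 50 kb of a gene start, with the hg19 start positions given to the nearest 1 kb. Of the 24078 peaks in all lists, 53 met this rule, and none of the 10 genes was without a peak. The series has 8 samples, with 1 sample per group and no replicate. In DU145, a prostate cancer cell line, antibodies to ETS1, GABPA, ELK4, ELF1 and JUND were used, and in PANC1, a pancreatic cancer cell line, an ETS1 antibody. The labels give no treatment, dose or time for any group, and for DU145 they mention puromycin in the medium if cells were selected, without saying which samples that applies to. Both lines also have an input sample, which was not analysed here.

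ERK is the last kinase of the RAS, RAF and MEK cascade, and it phosphorylates transcription factors, ETS1 among them. Cells with active ERK switch on genes whose products switch the cascade off again: dual-specificity phosphatases remove the activating phosphates from MAP kinases, while Sprouty and SPRED proteins act higher up, between growth factor receptors, RAS and RAF. ETS1, ELF1, ELK4 and GABPA are ETS family proteins, which share a DNA-binding domain and recognise sites with a GGAA core. JUND is an AP-1 subunit, and AP-1 and ETS proteins are known to meet at RAS-responsive enhancers. The title of the series names ETS1 as a genome-wide effector of RAS and ERK signalling in epithelial cells, so the lists bear on which factors were found at the genes that report on this pathway.

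RefSeq promoter entries (build GRCh38.p14) were matched for 7 of the 10 genes, and those of DUSP4, DUSP5 and IER3 were not. The 250 bases before the start are shown for 5 genes: DUSP1, whose start had both ETS1 and JUND, DUSP6 and PHLDA1, whose starts had wide ETS1 intervals, and SPRED1 and SPRED2, which had ETS1 alone and the most ETS motif matches. All are written 5′ to 3′ on the strand of the gene. Capitals mark GGAAG, with the A before it where there is one, and the letters TGACGTCA, on either strand, so that a GGAAG of the other strand reads as CTTCC. The intervals lie at chr5:172771196-172771445 (minus strand), chr12:89352502-89352751 (minus), chr15:38252586-38252835 (plus), chr2:65432600-65432849 (minus) and chr12:76031777-76032026 (minus). The peaks are on hg19, so the sequences show what the promoters hold and cannot be laid under a peak base by base.
DUSP1: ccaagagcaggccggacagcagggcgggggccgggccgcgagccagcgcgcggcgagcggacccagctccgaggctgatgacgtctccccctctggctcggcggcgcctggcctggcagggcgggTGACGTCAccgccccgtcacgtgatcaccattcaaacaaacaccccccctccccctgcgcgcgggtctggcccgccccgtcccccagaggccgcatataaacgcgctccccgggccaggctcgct
DUSP6: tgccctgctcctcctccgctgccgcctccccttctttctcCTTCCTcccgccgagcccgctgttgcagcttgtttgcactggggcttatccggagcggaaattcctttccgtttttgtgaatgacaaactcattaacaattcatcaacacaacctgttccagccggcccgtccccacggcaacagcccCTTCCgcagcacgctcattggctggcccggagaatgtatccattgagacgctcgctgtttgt
SPRED1: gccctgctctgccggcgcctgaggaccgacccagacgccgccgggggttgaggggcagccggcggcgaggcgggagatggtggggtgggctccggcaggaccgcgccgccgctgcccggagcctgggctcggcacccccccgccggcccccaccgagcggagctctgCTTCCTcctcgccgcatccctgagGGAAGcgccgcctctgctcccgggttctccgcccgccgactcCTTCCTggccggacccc
SPRED2: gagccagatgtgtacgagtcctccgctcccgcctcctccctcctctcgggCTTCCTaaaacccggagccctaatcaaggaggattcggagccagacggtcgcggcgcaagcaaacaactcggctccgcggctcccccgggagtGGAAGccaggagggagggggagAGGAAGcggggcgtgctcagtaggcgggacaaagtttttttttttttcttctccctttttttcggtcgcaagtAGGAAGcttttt
PHLDA1: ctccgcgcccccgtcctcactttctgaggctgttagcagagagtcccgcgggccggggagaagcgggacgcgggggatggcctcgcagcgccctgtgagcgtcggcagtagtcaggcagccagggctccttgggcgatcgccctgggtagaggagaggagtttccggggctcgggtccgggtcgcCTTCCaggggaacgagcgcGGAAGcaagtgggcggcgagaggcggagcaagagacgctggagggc

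The promoters were searched on both strands for 6 motifs in the same 250 bases. The letters GGAAG, an ETS core with a following G, were found in 5 of the 7 promoters (12 matches), the exceptions being DUSP1 and SPRY4, and in 65.1% of all 35116 RefSeq promoter entries. AGGAAG, which contains GGAAG, was found in 4 of 7, namely DUSP6, SPRY2, SPRED1 and SPRED2, with 7 matches in all, and in 28.7% of entries. CCGGAAG, the form with CC before the core, was in 0 of the 7 and in 8.52% of entries. The AP-1 letters TGANTCA were in 0 of the 7 and in 6.57% of entries, and the CArG box of serum response factor was in 0 and in 1.16%. The cyclic AMP response element TGACGTCA, which AP-1 and ATF dimers can bind, was in the DUSP1 promoter, from base 125 to base 118 before the start, and in 1.65% of entries. SPRY2 and SPRED2 have more than 1 entry, and the first of each was used. These matches describe letters and show no binding.

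The 7 lists hold only the position of each interval. The first DU145 ETS1 list had 9984 peaks and the second, marked R2, had 9306, and the labels do not say whether these come from separate immunoprecipitations, so they count as 1 sample. GABPA had 2478 peaks, JUND 1308, PANC1 ETS1 409, ELK4 337 and ELF1 256. Read depth, score and threshold are unknown, so a missing peak can be a missed one, most of all in the short lists. The first ETS1 list holds intervals of varying length (median 1173 bp), while the second holds windows (median 497 bp) that place a site more closely. Merged intervals with peaks of both lists are called ETS1 regions below, and there were 8183 of them.

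Both DU145 ETS1 lists had a peak at or close to the start of each of the 10 genes. Within 50 kb of the starts lay 20 peaks of the first list, 21 of the second and 19 ETS1 regions, and at each gene exactly 1 region covered the start within the 0.5 kb that rounding allows. The narrow second-list windows alone reached that close at 8 genes, and those of SPRED1 and DUSP6 ended 0.57 and 1.18 kb short of the start. With every peak set to 500 bp around its centre, 9 genes had an ETS1 region within 50 kb, since the intervals of the 2 lists did not meet at DUSP6. For comparison, an ETS1 region lay in 19.0% of 29506 consecutive windows of 100 kb, a peak of the first list in 22.0% and a peak of the second in 20.5%, a baseline that takes in gene-poor sequence and is therefore low for gene starts. The centre of the narrow second-list window lay within 0.5 kb of the start at 7 genes, with distances of 0.02 kb at DUSP4, 0.04 kb at DUSP1, 0.07 kb at DUSP5, 0.08 kb at IER3, 0.12 kb at SPRED2, 0.27 kb at PHLDA1 and 0.32 kb at SPRY4. Distances below the 0.5 kb of rounding give no order among these 7 genes. At the other 3 the centre was 0.58 kb from the start at SPRY2, 0.82 kb at SPRED1 and 1.43 kb at DUSP6. In each case it lay upstream along the strand of the gene, though the edge of the SPRY2 window, at 0.33 kb, was within rounding. SPRED1 lies on the plus strand and SPRY2 and DUSP6 on the minus strand, per the RefSeq table.

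**Figure D1:**
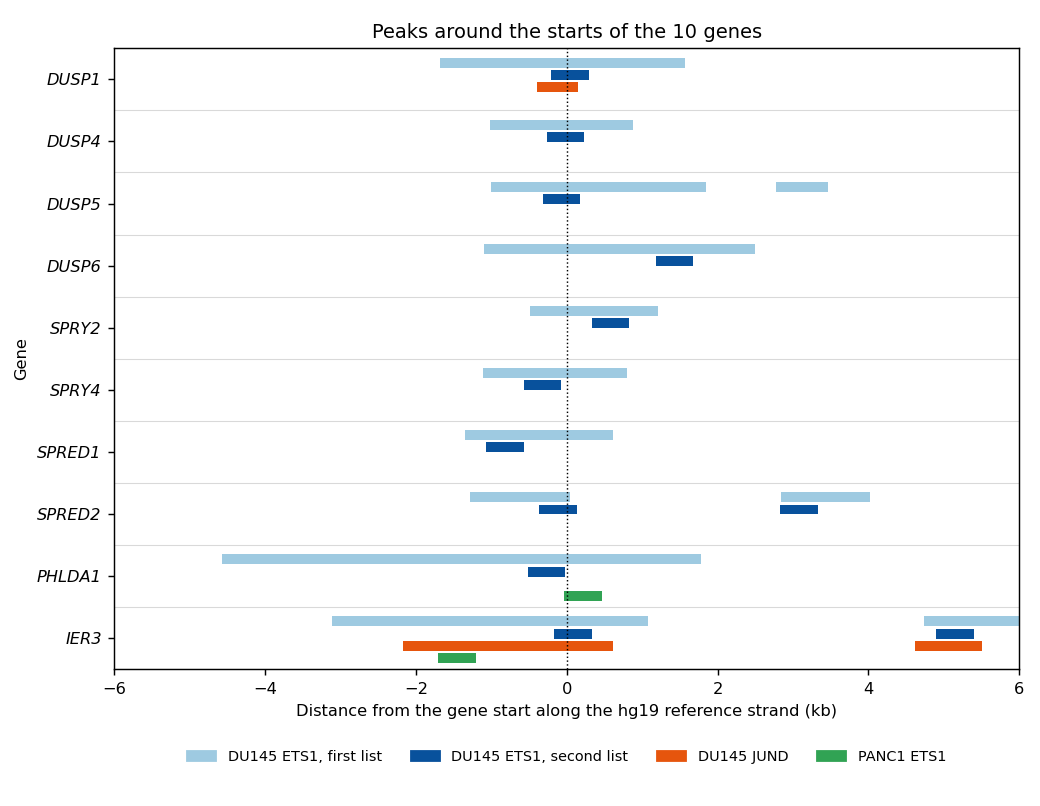
Intervals of the 4 lists that had peaks, drawn to scale around the starts of the 10 genes (dotted line at 0). The horizontal axis is the distance from the start in kb along hg19, and each gene has 1 row with the first ETS1 list, the second ETS1 list, JUND and PANC1 ETS1 from top to bottom. First-list ETS1 intervals meet the start in all 10 rows, JUND in the rows of DUSP1 and IER3, and PANC1 ETS1 in that of PHLDA1, while the PANC1 window of IER3 is centred 1.46 kb to the left.

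Among the phosphatase genes, DUSP1 had an ETS1 region of 3250 bp at chr5:172196319-172199568. DUSP1 is a nuclear phosphatase that acts on p38 and JNK as well as ERK. DUSP4, a related nuclear phosphatase, had a region of 1904 bp at chr8:29206980-29208883. DUSP5, a nuclear phosphatase selective for ERK, had a region of 2841 bp at chr10:112257003-112259843. DUSP6, the cytoplasmic phosphatase selective for ERK, had the widest of this group, 3598 bp at chr12:89744901-89748498. No second ETS1 region lay within 50 kb of any of the 4. DUSP5 also had a peak of the first list alone, 694 bp wide and 3.12 kb from the start, and a peak of the second list alone, 487 bp wide and 31.98 kb away, so these 2 sites were not shared between the ETS1 lists.

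The start regions of the Sprouty and SPRED genes were between 1420 and 1962 bp wide, narrower than those of DUSP1, DUSP5 and DUSP6. SPRY2, an inhibitor of growth factor receptor signalling, had 1 region of 1705 bp at chr13:80914507-80916211. SPRY4, of the same family, had 1914 bp at the start (chr5:141703887-141705800) and a second region of 956 bp, 31.76 kb towards higher coordinates at chr5:141736279-141737234. SPRED1, which recruits neurofibromin to restrain RAS, had 1962 bp at chr15:38543654-38545615. SPRED2 had 1420 bp at the start (chr2:65658708-65660127) and 1193 bp at a distance of 3.42 kb (chr2:65662828-65664020). The 2 SPRED2 regions were separate in both ETS1 lists.

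Both response genes had wider start regions than the other 8 genes. PHLDA1, a pleckstrin homology-like protein, had the widest of the 19, 6349 bp at chr12:76420422-76426770, and 0.159% of all ETS1 regions were wider. A second PHLDA1 region of 1737 bp lay 10.44 kb towards lower coordinates at chr12:76413693-76415429. IER3, an immediate early gene that affects cell survival, had a start region of 4200 bp at chr6:30708883-30713082, and 0.709% of regions were wider. It had 7 ETS1 regions within 50 kb, against 1 or 2 at every other gene, and 0.429% of the 5592 windows of 100 kb with an ETS1 region held as many or more. IER3 was taken here as the gene with the most regions, so the 0.429% does not measure how rare such a gene is. The other 6 IER3 regions were between 508 and 3063 bp wide, at distances of 5.38, 8.17, 23.04, 25.25, 26.73 and 37.53 kb. A peak of the second list alone, 491 bp wide, lay 18.34 kb from the IER3 start. In the RefSeq table the protein-coding genes within 50 kb of IER3 include FLOT1, TUBB and MDC1. PHLDA1 has NAP1L1, DUSP6 has POC1B and SPRED2 has ACTR2 within 50 kb of the gene, and DUSP1, DUSP4, DUSP5, SPRY2, SPRY4 and SPRED1 have no protein-coding neighbour at that distance. Peaks away from a start cannot be assigned to a gene by distance alone, and those around IER3, PHLDA1, DUSP6 and SPRED2 are given by their distance only. The IER3 start region may also take in the start of a neighbour, since hg19 starts of the neighbours were not at hand. Its width and overlaps are therefore those of the interval, and may not belong to IER3 alone.

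**Figure D2:**
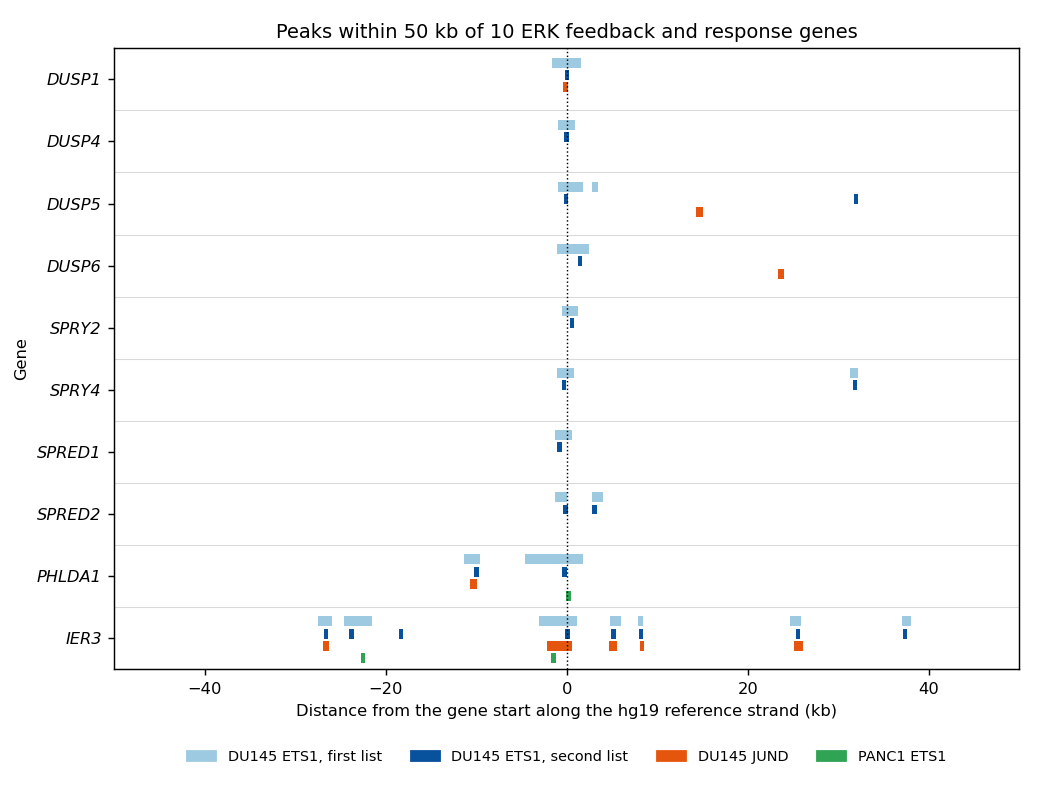
Intervals within 50 kb of each start, in the same rows and colours, with distance from the start in kb on the horizontal axis. Peaks gather at 0 in all 10 rows, 4 genes have no peak away from the start in any list (DUSP1, DUSP4, SPRY2 and SPRED1), and IER3 has 7 ETS1 regions and 5 JUND peaks.

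Start regions were wide against ETS1 regions in general, but they were picked for covering a point, a choice that favours wide intervals. No other ETS1 regions covering a gene start were at hand for comparison, and the part of this choice in the width was not tested. The 10 regions that covered a start were between 1420 and 6349 bp wide (median 2402 bp), the other 9 between 508 and 3063 bp (median 1260 bp), and all 8183 regions had a median of 1273 bp. Of the 19 regions, 11 were in the widest of 5 equal groups of ETS1 regions, and 9 of these 11 reached within 5 kb of a start. Line order in the ETS1 lists, whose meaning was not given in the sources used here, also set the genes apart. The IER3 start region stood at line 61 of the second list and line 52 of the first, within the first 0.655% and 0.521% of lines. PHLDA1 stood at 5.04% and 3.37%, DUSP1 at 16.8% and 14.7%, and DUSP5 at 22.5% and 7.81%. SPRY2 stood at 29.6% and 32.6%, and DUSP6 at 33.4% and 29.5%. The remaining 4 genes lay past 50% of the second list, with SPRY4 at 52.2%, SPRED2 at 53.7%, SPRED1 at 57.3% and DUSP4 at 61.4%. The first list put SPRED1 much earlier, at 24.8%, and SPRY4 later, at 82.2%, so the order of these genes differed between the lists.

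**Figure D3:**
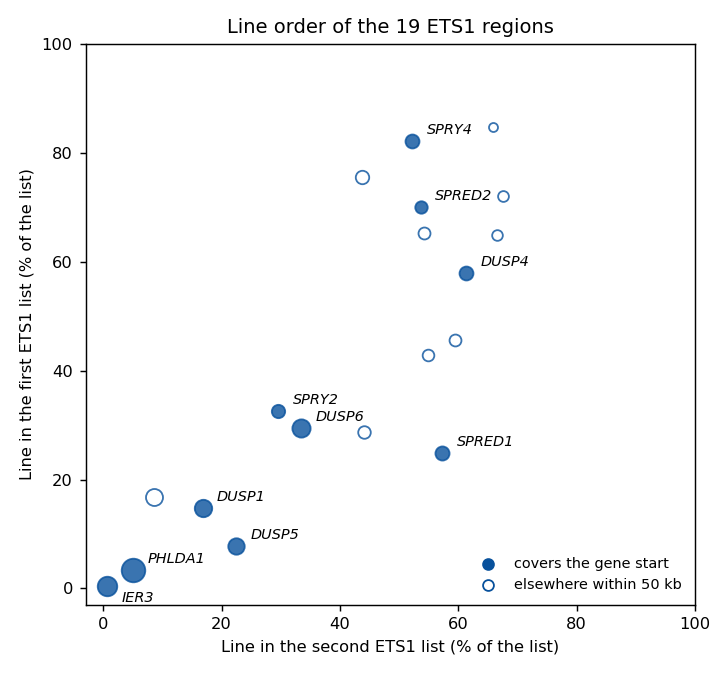
Line of each of the 19 ETS1 regions in the second (horizontal) and first (vertical) DU145 ETS1 list, as a percentage of the list. Filled points cover a gene start, open points lie elsewhere within 50 kb, and larger points are wider regions. IER3 and PHLDA1 lie at the lower left, and SPRED1 is early in the first list (24.8%) but not in the second (57.3%).

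None of the other 3 ETS factors had a peak within 50 kb of any of the 10 starts. GABPA, a widely expressed ETS factor of housekeeping promoters, had 0 peaks there, ELK4, a partner of serum response factor at immediate early genes, had 0, and ELF1, another widely expressed ETS factor, had 0. As a background, 44.4% of all 8183 ETS1 regions had a GABPA peak within 50 kb, 7.96% an ELK4 peak and 5.61% an ELF1 peak. Windows of 100 kb with no regard to ETS1 held GABPA in 7.05%, ELK4 in 1.12% and ELF1 in 0.841% of cases. For 0 of 10 genes the exact Clopper-Pearson interval (95%, counting error only) reaches from 0 up to 30.8%. For ELK4 and ELF1, 0 of 10 is near the background and is no result about these genes. For GABPA, 0 of 10 is below the 44.4% around ETS1 regions but near the 7.05% of windows, so its reading depends on the background. In 52.4% of ETS1 regions, none of these 3 lists had a peak within 50 kb, against 10 of 10 gene starts. The genes were chosen with results of these lists known, so these counts and intervals are a description and not a test of the genes as a group.

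Over intervals rather than genes, 0 of the 19 ETS1 regions overlapped a GABPA peak (a count of 0 in 19 allows up to 15.8% with a floor of 3 counts, and the exact interval is 0 to 17.6%), while 28.1% of all ETS1 regions did (2302 of 8183). Regions of 1 gene share a locus, so these intervals are too narrow. GABPA overlap depends on line order, and in 5 equal groups of ETS1 regions ordered by line in the second list it fell from 52.4% in the first group to 41.1%, 27.1%, 13.9% and 6.17%. The 19 regions stood in these groups as 4, 3, 3, 9 and 0. The 4 in the first group were 3 start regions (IER3, PHLDA1 and DUSP1) and the IER3 region at 23.04 kb. For ELK4 and ELF1, overlap was 3.25% and 2.79% of all regions, so 0 of 19 is near the background. At 69.6% of all ETS1 regions none of the 3 lists overlapped, against 19 of the 19 here.

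The nearest GABPA peak was 61.4 kb from the IER3 start, just outside the limit of 50 kb. Its distance was 188 kb at DUSP1, 193 kb at DUSP5, 201 kb at SPRED1, 205 kb at SPRED2, 300.0 kb at SPRY4, 317 kb at PHLDA1, 745 kb at DUSP4, 3349 kb at SPRY2 and 4090 kb at DUSP6. The median of the 10 genes was 252 kb, and that of all ETS1 regions was 74.6 kb with a lower quartile of 0.289 kb. Of the 10 starts, 9 lay farther from GABPA than that median, the exception being IER3. The nearest ELK4 peak to any start was 71.1 kb from IER3, and the nearest ELF1 peak was 303 kb from SPRED2. The IER3-side GABPA and ELK4 peaks each overlapped an ETS1 region. Peaks nearest the limit were, for ETS1, at 37.5 kb from IER3 inside it and at 52.3 kb from PHLDA1 outside it, and for JUND at 26.6 kb from IER3 and 53.1 kb from PHLDA1.

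**Figure D4:**
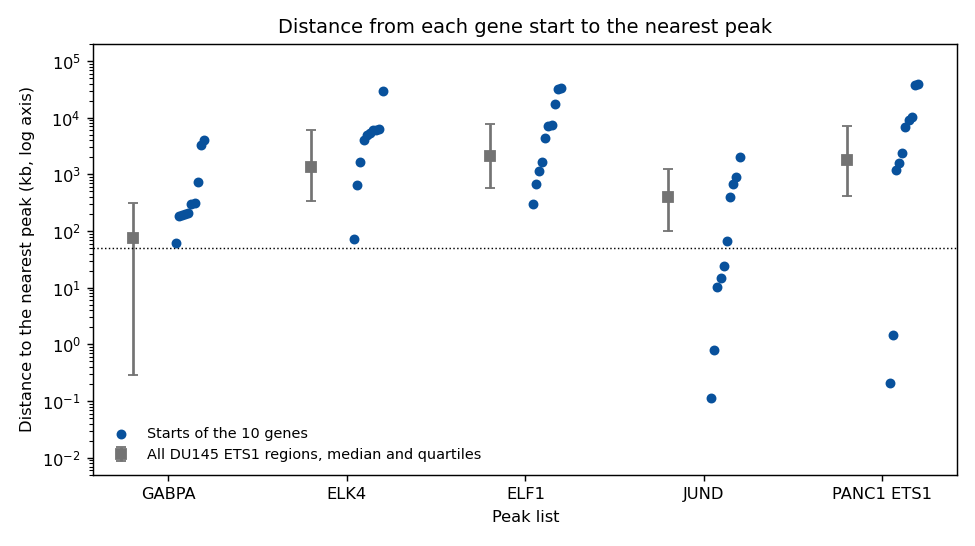
Distance in kb (log axis) from each of the 10 gene starts to the nearest peak of 5 lists (points), beside the median and quartiles over all DU145 ETS1 regions (squares with bars), with a dotted line at 50 kb. All points of GABPA, ELK4 and ELF1 are above the line, and 5 points of JUND and 2 of PANC1 ETS1 are below it.

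JUND peaks lay within 50 kb of 5 of the 10 starts: DUSP1, DUSP5, DUSP6, PHLDA1 and IER3. They numbered 9, of which 5 were near IER3 and 1 near each of the other 4 genes. By comparison, 17.0% of all ETS1 regions had a JUND peak within 50 kb, and a JUND peak lay in 3.64% of all 100 kb windows. The exact interval of 5 in 10 genes is 18.7 to 81.3%, and that of the 4 in 9 genes without IER3 is 13.7 to 78.8%. DUSP4, SPRY2, SPRY4, SPRED1 and SPRED2 had none within 50 kb, and the nearest peak was 66.1 kb away at SPRED2 and between 404 and 2014 kb at the other 4. All JUND peaks within 50 kb were therefore at 3 of the 4 phosphatase genes and at both response genes. The 4 Sprouty and SPRED genes had 0, which is near the background of 17.0% and no result about them. The split over 10 genes was not tested, and it moved with the window. Within 20 kb 4 genes had a JUND peak, DUSP6 being without, and within 100 kb 6 did, SPRED2 being added.

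JUND met the start region itself at DUSP1 and IER3. At DUSP1 the JUND peak of 548 bp (chr5:172197612-172198159) was centred 158 bp from the second-list ETS1 window, and it stood at line 1059 of 1308. The meaning of line order in the JUND list was not given in the sources used here either, so its line numbers are positions only. At IER3 the JUND peak of 2776 bp (chr6:30709832-30712607) stood at line 10, and its centre was 865 bp from that of the ETS1 window. The median width of JUND peaks is 696 bp. At PHLDA1 the JUND peak (chr12:76414252-76415103, line 846) was not at the start but in the second ETS1 region, 10.32 kb away, with centres 367 bp apart. The other 4 JUND peaks of IER3 each overlapped an ETS1 region as well, at 5.06, 8.32, 25.59 and 26.59 kb from the start, with centres 87, 146, 56 and 42 bp apart. Of these, the peak at 25.59 kb stood at line 39 of the JUND list. The number of JUND peaks around IER3 was matched or passed in 0.125% of the 5592 windows of 100 kb with an ETS1 region. IER3 was taken here as the gene with the most JUND peaks, and its window was centred on the start, unlike the others. The 0.125% is therefore a description and does not measure how rare such a gene is.

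DUSP5 and DUSP6 differed from these genes in having JUND apart from ETS1. The DUSP5 peak (chr10:112272315-112273107, 793 bp, line 246) lay 14.71 kb from the start and 14.3 kb from the nearest ETS1 region. The DUSP6 peak (chr12:89769312-89770052, 741 bp, line 918) lay 23.68 kb from the start and 23.0 kb from the nearest region. Hence 7 of the 9 JUND peaks were in an ETS1 region, where 31.3% of all 1308 JUND peaks were. IER3 gave 5 of the 7. At the other genes, the peaks of DUSP1 and PHLDA1 were in a region and those of DUSP5 and DUSP6 were not. The 31.3% is over JUND peaks anywhere, while all 10 starts here had an ETS1 region nearby, so the shares have unlike bases.

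Of the 19 ETS1 regions, 7 overlapped JUND, or 36.8% (exact interval 16.3 to 61.6%), against 4.89% of all ETS1 regions. IER3 contributed 5 of these 7. Without IER3 the share was 2 of 12, or 16.7% (2.09 to 48.4%). Of the 10 start regions 2 had JUND, and of the other 9 regions 5 did. Wide regions meet JUND more often, with 12.3% in the widest of 5 equal groups and between 2.69 and 3.73% in the other 4, and 3 of the 7 regions with JUND were in the widest group. The part of width in the JUND share was not tested.

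**Figure D5:**
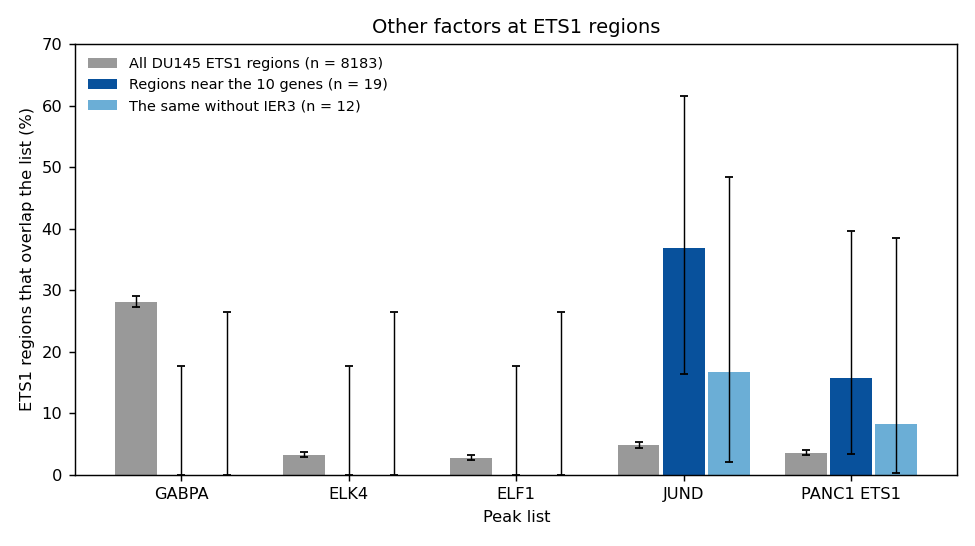
Share of ETS1 regions (%) that overlap each of 5 lists, for all 8183 regions (grey), the 19 near the 10 genes (dark blue) and the 12 of these that are not near IER3 (light blue), with exact 95% intervals. The GABPA share is 28.1% over all regions and 0 near the genes, and the JUND share is 36.8% near the genes and 16.7% without IER3.

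In PANC1, ETS1 peaks were listed near PHLDA1 and IER3 and near none of the other 8 genes. The PHLDA1 peak (chr12:76424961-76425461) was centred 0.21 kb from the start and 482 bp from the DU145 second-list window, within the same wide region. IER3 had 2 peaks, at chr6:30710296-30710795, 1.46 kb from the start, and at chr6:30689242-30689729, 22.5 kb away, both on the side of FLOT1 and TUBB. Their centres were 1539 and 1254 bp from the DU145 second-list windows of the regions they fell in. The hg19 starts of FLOT1 and TUBB were not at hand, so neither of these peaks can be assigned to IER3 by distance. All 3 PANC1 peaks lay in DU145 ETS1 regions, as 74.1% of the PANC1 list did, but none was centred within 200 bp of the DU145 region it overlapped. In the background, 8.55% of DU145 ETS1 regions had a PANC1 peak within 50 kb and 1.02% of all 100 kb windows held one, and the exact interval for 2 of 10 genes is 2.52 to 55.6%. Of the 19 ETS1 regions, 3 overlapped a PANC1 peak, or 15.8% (3.38 to 39.6%), against 3.62% of all regions, and without IER3 it was 1 of 12, or 8.33% (0.211 to 38.5%). With the narrow windows of the second DU145 list alone it was 1 of 21, or 4.76%, against 3.11% of that list. Over all ETS1 regions in 5 equal groups, PANC1 overlap was 9.96% in the widest group and between 1.04 and 4.09% in the others. Ordered by line in the second list, it was 10.1% in the first group and between 0.977 and 3.05% in the others. All 3 regions with a PANC1 peak were in the first group of both orders. The part of width and line order in the PANC1 share was not tested. PHLDA1 and IER3 were also the genes with the widest start regions and the earliest lines in DU145. The PANC1 list was crowded on chromosome 6, with 86 of its 409 peaks (21.0%), so the 2 IER3 peaks stand on a chromosome that is dense in that list. The part of this density in the IER3 peaks was not tested. Outside the limit of 50 kb, the PANC1 peak nearest to any start was 127.1 kb from IER3. Among the other 8 genes, the nearest was at 1210 kb for DUSP6, followed by 1607 kb for SPRY4. A list of 409 peaks with unknown depth does not show that ETS1 was absent from these 8 genes in PANC1.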

How the data were processed

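ChIP-seq peak lists of 6 samples were used, as the authors deposited them: 7 lists of chromosome, start and end of each peak, in base pairs on hg19 per the labels, with no score or count per peak. Other processing by the authors is known only from the submitters' processing notes, which name Bowtie2 2.0.6 without its role. The peak caller, its threshold and the use of the inputs were not given in the sources used here, and read depth is unknown.

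Starts were read as 0-based and printed as 1-based positions. Peaks sharing at least 1 bp counted as overlapping. An ETS1 region is a merged interval with a peak of both DU145 ETS1 lists. Distances run from the peak centre to the start, which was given to the nearest 1 kb, and a peak counted as near when any base lay within 50 kb. Shares carry exact 95% Clopper-Pearson intervals. No p-value was computed, since each group has 1 sample. Backgrounds are all ETS1 regions, and consecutive windows of 100 kb from the first to the last peak of each chromosome. The overlap steps, tested on simulated data, gave the true overlaps in 3 of 3 runs. Python 3.11.15, NumPy 2.4.6, SciPy 1.17.1 and Matplotlib 3.10.9 were used. RefSeq names, strands and promoters are of GRCh38.p14, and no coordinate was converted. Further pathway genes were not analysed here, because their hg19 starts were not at hand. All 10 genes are named by rule. The genes, lists and tests were chosen with earlier results of these data known. Alternatives set at the outset were 8 settings, and 2 more (without IER3, and within 5 kb) were chosen after seeing the data.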

Additional observations from a re-analysis of the deposited data

How the results depend on the processing

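With the earlier 50% of the lines of each list (the PANC1 list, which is grouped by chromosome, was kept whole, so its count could not change), 6 genes had an ETS1 region in place of 10, 2 had a JUND peak in place of 5, and 8 ETS1 regions were left of 19. Within 100 kb the regions numbered 29, and 1 gene (IER3) gained a GABPA peak and an ELK4 peak, where ELF1 stayed at 0. A JUND peak lay within 20 kb of 4 genes and within 100 kb of 6. Without IER3, 12 regions were left and 1 gene had a PANC1 ETS1 peak. The share of the regions with a PANC1 peak, 15.8%, was 0 with intervals of 500 bp, 0 with centres within 200 bp, 4.76% with the second ETS1 list alone (3.11% of that whole list) and 8.33% without IER3. With intervals of 500 bp, 9 genes had an ETS1 region, DUSP6 being without. The JUND share ran from 16.7% (without IER3) to 42.9% (500 bp intervals, where 3.85% of all regions had JUND), and with centres within 200 bp it was 21.1% against 2.33% of all regions. The GABPA share was 3.45% within 100 kb and 0 in the other settings, where counts of 0 for GABPA, ELK4 or ELF1 cannot fall when the window, the intervals or the list are reduced and so show nothing of stability. No paired analysis was possible because each group has 1 sample. Unknown depth limits what the absence of a peak can show, and the labels do not say whether the 2 ETS1 lists are replicates.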
